A study of Mus musculus with 13 samples.

Results

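Decitabine, the deoxycytidine analogue 5-aza-2'-deoxycytidine, was applied at 20 uM to wild-type extraembryonic endoderm (XEN) cells, a female mouse stem cell line of the yolk sac endoderm lineage. The members were the 4 libraries whose labels place them in the wild-type XEN arm, 2 treated and 2 untreated, of 13 in the series. Replication-dependent histone genes and the small noncoding RNA and rRNA classes were left out by rule, because the treated libraries resemble total RNA and the untreated ones poly(A)-selected RNA. The labels give neither the time in drug nor whether replicates came from separate cultures, so the tests take in no more than library-to-library spread, which may be technical. A parallel arm held 3 untreated and 2 treated libraries of female XEN cells labelled with a paternal Xist deletion (dXist), at the same dose. The other 4 were untreated epiblast stem cells (EpiSC), also female, 2 wild type and 2 with a heterozygous Xist deletion (here also dXist). Expression was measured by bulk RNA sequencing as counts per gene.

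Decitabine is phosphorylated inside the cell, first by deoxycytidine kinase, and incorporated into DNA, where it traps the maintenance methyltransferase DNMT1. Methylation is then lost as cells divide. Germ cell genes with CpG-bearing promoters and imprinted noncoding RNAs are classical loci kept silent by DNA methylation, and interferon genes are known to respond when repeats lose methylation and give double-stranded RNA. XEN cells express GATA4, GATA6, SOX17 and SOX7 and secrete basement membrane proteins.

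The 4 promoters below belong to the germ cell genes with the smallest adjusted p among those that were higher in the treated cells, and are shown because these genes were near 0 in untreated cells. Each line holds the 250 bases upstream of the RefSeq start (GRCm38.p6, strand of the gene, 5′ to 3′), with CpG dinucleotides in capitals.
Taf7l: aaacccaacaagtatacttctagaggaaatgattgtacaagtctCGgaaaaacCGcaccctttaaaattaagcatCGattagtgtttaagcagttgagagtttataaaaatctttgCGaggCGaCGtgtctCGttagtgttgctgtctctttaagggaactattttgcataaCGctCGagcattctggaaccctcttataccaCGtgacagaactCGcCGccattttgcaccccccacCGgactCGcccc
Hormad1: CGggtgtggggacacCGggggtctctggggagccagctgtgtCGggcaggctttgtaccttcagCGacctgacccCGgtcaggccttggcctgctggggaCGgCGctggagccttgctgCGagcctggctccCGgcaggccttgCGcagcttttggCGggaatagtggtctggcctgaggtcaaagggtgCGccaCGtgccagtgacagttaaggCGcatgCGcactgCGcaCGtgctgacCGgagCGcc
Tex19.1: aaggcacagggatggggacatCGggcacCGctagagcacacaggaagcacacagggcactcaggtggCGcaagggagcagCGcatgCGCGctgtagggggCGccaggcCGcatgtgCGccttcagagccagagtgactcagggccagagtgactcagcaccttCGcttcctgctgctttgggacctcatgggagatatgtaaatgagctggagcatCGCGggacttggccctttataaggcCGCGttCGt
Dazl: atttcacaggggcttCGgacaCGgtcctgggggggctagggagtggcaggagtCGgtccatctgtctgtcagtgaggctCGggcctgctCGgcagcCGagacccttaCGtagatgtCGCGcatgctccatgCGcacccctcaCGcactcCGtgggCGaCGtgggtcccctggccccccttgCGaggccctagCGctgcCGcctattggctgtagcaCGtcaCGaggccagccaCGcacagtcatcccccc
The Taf7l window (chrX:134476491-134476740, minus strand) held 14 CpGs and that of Hormad1 (chr3:95559427-95559676, plus strand, the first of its 2 listed starts) held 19. Tex19.1 (chr11:121145893-121146142, plus strand) had 15 and Dazl (chr17:50293621-50293870, minus strand) had 20, against a median of 5 over 22862 promoters of this length. The E-box letters CACGTG, which read the same on both strands, occurred in the Taf7l and Hormad1 windows and in 5.92% of all promoters. TCCCGC or its reverse GCGGGA was found in Hormad1 and Tex19.1 and in 16.5% of all promoters. A match is only a description of these letters.

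The treated libraries held 5848454 and 9181835 counts and the untreated ones 30841285 and 35247432. Genes left out by rule took 11.8% and 12.9% of the treated counts and 0.119% and 0.0393% of the untreated counts. Mitochondrial rRNA with Rn7sk, which poly(A) selection removes, made up 10.4% and 11.4% of the treated and 0.0503% and 0.0152% of the untreated totals. Replicate 2 of each EpiSC genotype was total-like by the same measure and the other 9 libraries were poly(A)-like. In wild-type XEN cells, treatment and library type therefore cannot be told apart from these 4 libraries. The EpiSC libraries (same cells, both types) and the dXist arm (both groups poly(A)-like, none of its libraries shared) are given beside the results. Mitochondrial rRNA with Rn7sk was still higher in the treated dXist XEN libraries, at 0.279% and 0.142%. The untreated dXist XEN libraries had 0.0178%, 0.0172% and 0.0284%. Treatment and this measure thus moved together in the dXist arm too, and the part of the measure there was not tested. Levels are counts of a gene scaled to the library's kept total times its TMM factor, as CPM. By the kept total alone, 3 counts would be 0.582 and 0.375 CPM in the treated and 0.0974 and 0.0851 CPM in the untreated libraries. On the scale printed here 1 count was 0.173 and 0.11 CPM in treated replicates 1 and 2, and 0.0324 CPM in untreated replicate 1.

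No gene passed the test when all 9 XEN libraries estimated the spread. With edgeR's quasi-likelihood test, 0 of 18166 genes were higher and 0 lower at an adjusted p under 0.05 (0% and 0%), and the smallest adjusted p was 0.249. At an unadjusted p under 0.05, 1431 genes (7.88%) were higher and 691 (3.8%) lower. DESeq2 on the same libraries called 366 higher (2.03% of 18070) and 94 lower (0.52%). When the fit held only the 4 libraries compared, edgeR called 222 of 15030 genes higher (1.48%) and 115 lower (0.765%). In that fit the counts went to 0 without either treated library, and to 8537 and 9269 without untreated replicate 1 or 2. The treated pair differed from each other by 2.64 in chi-square per degree of freedom, the untreated pair by 156.79, and the other replicate pairs by 52.57 to 442.28. This measure was not corrected for depth, which was lowest in the treated pair, and each EpiSC pair held both library types. Below, "rose" and "fell" are used only of genes that passed the 4-library edgeR test, and every such gene missed the threshold in the 9-library fit.

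Among genes that rose, the median level was 1.71 CPM in untreated and 14.7 CPM in treated libraries, and 93 of the 222 averaged under 1 CPM untreated. Those that fell were well expressed, with medians of 169 CPM untreated and 52.8 CPM treated. Protein-coding genes made up 152 of the 222 and 110 of the 115, and 46 of those that rose were of the annotation's TEC class, loci without a settled gene model.

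Library type moved with part of these calls. Of the 209 risen genes measured in EpiSCs, 55 (26.3%) were at least 2-fold higher in the total-like library of both genotypes, against 3.48% of all genes tested. The overlap lay in classes other than protein-coding, TEC loci among them. There 53 of 67 genes (79.1%) overlapped, where 24% of all tested genes of these classes did. Of the protein-coding genes 2 of 142 (1.41%) did, where 0.492% of all tested protein-coding genes did. Of the 110 fallen genes measured there, 26 (23.6%) were at least 2-fold lower in both total-like libraries, against 0.867% of all genes, and 24 of them were protein-coding. Under 2-fold between types in both genotypes were 134 of the 209 (64.1%) and 58 of the 110 (52.7%), against 78.6% of all genes tested. Their part in the treatment result was not tested beyond these values.

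**Figure D1:**
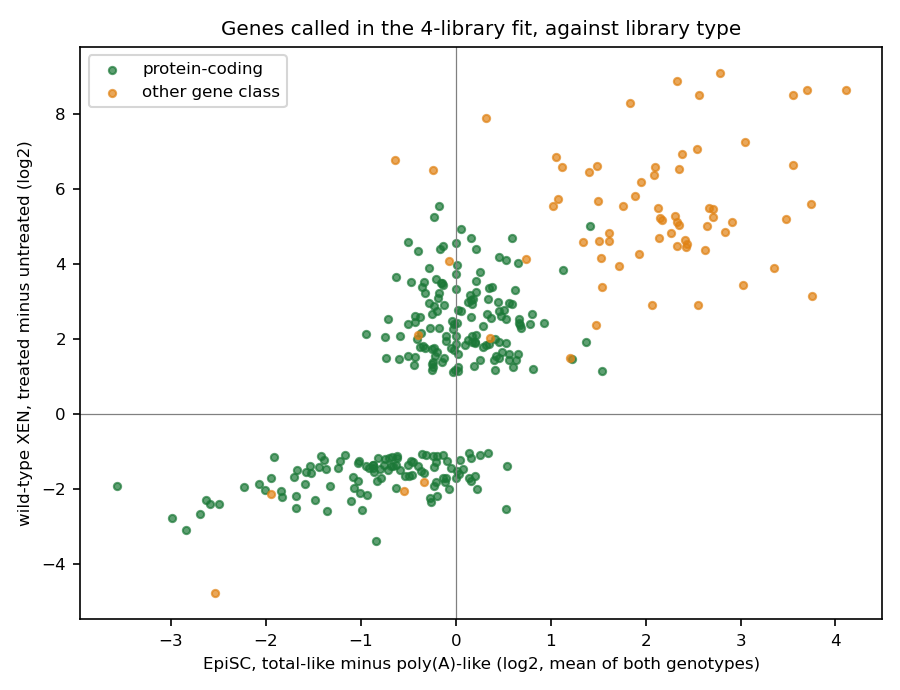
Each point is a gene called in the 4-library fit and measured in EpiSCs, with the log2 difference between total-like and poly(A)-like EpiSC libraries (mean of the genotypes) on the x axis and the log2 change between treated and untreated wild-type XEN libraries on the y axis. Risen genes of classes other than protein-coding lie mostly to the right (53 of 67 at least 2-fold higher in both genotypes). Of the 142 protein-coding genes that rose, 127 lie within 2-fold.

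The dXist arm moved in the same direction for most called genes. Of the 222 risen genes, 202 (91%) had a positive log2 change in dXist cells, against 49.8% of the 15030 genes tested, and 132 (59.5%) were higher at an unadjusted p under 0.05 there, against 14.7% of all tested genes. Of the 115 fallen genes, 93 (80.9%) were negative, against 50.2%; 40 (34.8%) were lower at an unadjusted p under 0.05, against 12% of all tested genes, and 5 were higher. Among genes within 2-fold between EpiSC types, 125 of 134 were positive and 55 of 58 negative, where 48.2% of all such genes were positive. Of the 26 fallen genes that were lower in total-like EpiSC libraries only 15 were negative in dXist cells, as were 41 of all 117 such genes. Of the 55 risen genes that were higher in total-like EpiSC libraries 46 were positive there, as were 362 of all 469 such genes. For rises the dXist change therefore moved with library type as well, and the part of each was not tested. Treated dXist replicate 1 stands apart from the other XEN libraries (log CPM correlations of 0.849 to 0.916) and carried 5.76% mitochondrially encoded counts. Without it, 201 of 222 were positive and 100 of 115 negative, and without treated replicate 2 the counts were 183 and 90. The dXist comparison itself called 12 genes higher and 1 lower of 18166 (0.0661% and 0.0055%). For the difference between the genotypes' responses edgeR called 0 genes (1376 at an unadjusted p under 0.05), and DESeq2 called 78.

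**Figure D2:**
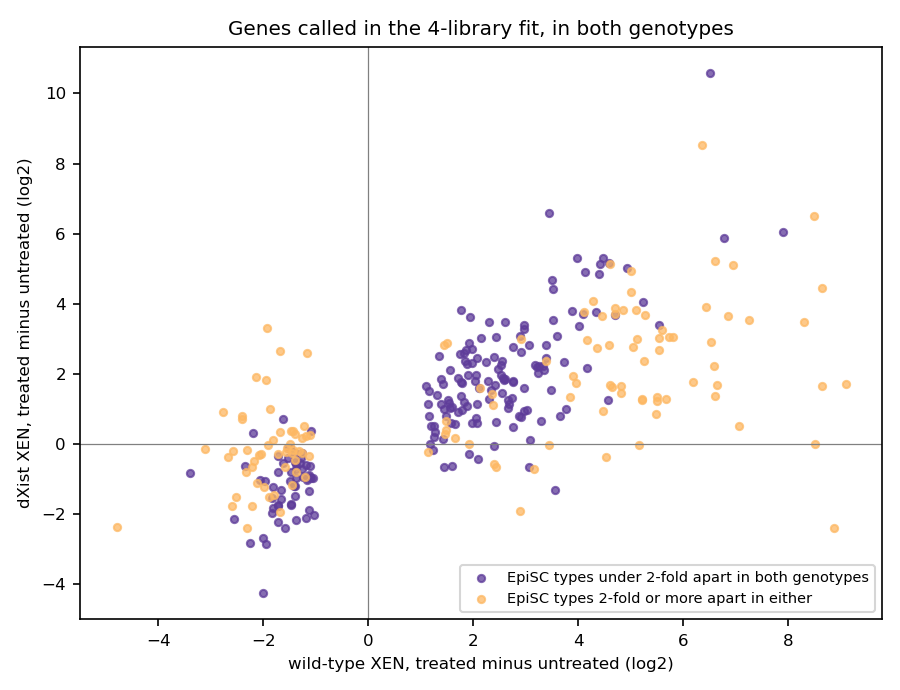
Log2 change in wild-type XEN cells (x axis, 4-library fit) against the change in dXist XEN cells (y axis) for called genes measured in EpiSCs, coloured by whether EpiSC library types differ by 2-fold. Of the purple points, 125 of the 134 that rose are above 0 and 55 of the 58 that fell are below 0.

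Xist, the RNA that coats the inactive X chromosome and is the deleted locus of the other genotype, read 1500 and 1579 CPM in untreated wild-type cells and 1696 and 1247 CPM in treated ones. The libraries labelled dXist read 2.19, 1.14 and 4.79 CPM untreated and 12.9 and 223 CPM treated, so the second treated library labelled dXist carried Xist well above the others of its genotype. Wild-type Xist levels overlapped between groups (log2 change -0.07, SE 0.99, edgeR adjusted p = 0.99, 9 libraries). In wild-type EpiSCs Xist read 979 CPM in the poly(A)-like and 254 CPM in the total-like library (log2 difference -1.94), a single library of each type. The dXist EpiSC libraries read only 0.531 and 0.342 CPM, so library type and replicate cannot be told apart for this gene. The treatment change was 1.54 (SE 1.38) with library type as a term over 13 libraries. Over 631 tested X-linked genes the median log2 change was -0.01, against -0.05 for autosomal genes. It was 0.36 against 0.07 with library type as a term, and 0.38 against -0.003 in dXist cells. In the 4-library fit 7 X-linked genes rose (1.45%) and 2 fell (0.414%), beside 1.48% and 0.765% of all genes.

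None of the 8 genes of the drug's own route given here was called in either fit. Dnmt1, the maintenance methyltransferase, read 233 and 283 CPM untreated and 268 and 265 CPM treated. Uhrf1, which brings DNMT1 to replicated DNA, read 134 and 224 CPM, then 183 and 156 CPM. Dnmt3a, a de novo methyltransferase, stood at 60.5 and 70.8 CPM before and 60.8 and 57.4 CPM after. All 3 overlapped between groups, with 9-library adjusted p between 0.955 and 0.983. Dnmt3b, the other de novo enzyme, read 160 and 205 CPM untreated and 100 and 99.8 CPM treated without overlap (log2 change -0.87, SE 0.76, edgeR adjusted p = 0.695, and 0.068 with 4 libraries). Deoxycytidine kinase, Dck, read 12.1 and 10.3 CPM against 11.1 and 13.5 CPM treated. Its total-like EpiSC libraries were lower by log2 differences of -1.10 and -1.01, and its treatment change was 1.29 with library type as a term. Cda, which deaminates the drug, read 2.2 and 0.317 CPM against 1.56 and 1.99 CPM, with the untreated replicates far apart. The nucleoside transporter Slc29a1 was at 91 and 153 CPM, then 84.3 and 91.4 CPM. Samhd1, a nucleotide triphosphohydrolase, read 22.9 and 29.1 CPM, then 21.3 and 23.3 CPM. These last 4 genes overlapped between groups.

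Of the 27 members of the DNA methylation machinery list, 1 rose and 1 fell in the 4-library fit (1.48% and 0.765% of all genes). The median log2 change was -0.12 beside -0.05 for all genes. All 27 had at least 10 counts in both untreated libraries, and the median of all such genes was -0.16. Zbtb38, a reader of methylated DNA, rose from 5.41 and 6.63 CPM to 20.4 and 20 CPM (edgeR adjusted p = 0.0451 with 4 libraries, 0.258 with 9). Mbd3, a NuRD complex subunit, fell from 80.9 and 97.6 CPM to 32.6 and 26.2 CPM (0.0434 and 0.281). In the dXist arm Mbd3 also stood lower, at 13.2 and 35.1 CPM treated against 146, 116 and 118 CPM. Among 26 genes of decitabine uptake and metabolism only Abcb1b, a drug efflux pump, rose in the 4-library fit and none fell (1.48% and 0.765% of all genes). Abcb1b went from 7.68 and 7.58 CPM to 23.2 and 27.5 CPM (0.0434 and 0.449), and the list median was 0.12.

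Germ cell genes were the list with the highest median over all tested members. Of 53 listed genes 36 passed the filter on low counts, and their median log2 change was 3.62 in the 9-library fit, beside -0.05 for all genes. A gene silent in untreated cells could pass that filter only through the treated or dXist libraries, so this median describes a chosen subset. Over all 53, 30 were higher without overlap and 2 lower, where 18.2% and 16.4% of all 35958 kept genes were, and 5 had no counts in the 4 libraries. Only 7 members had at least 10 counts in both untreated libraries. Their median was 1.02, beside -0.16 for all such genes and a higher 1.24 for such members of the interferon list. Of the 7, 3 were higher beyond 2-fold (8.36% of all such genes) and 1 lower (7.91%). The median over the 36 tested members went from 0.0972 and 0.0476 CPM in the untreated to 1.21 and 0.994 CPM in the treated libraries. In dXist cells it was 0.0309, 0.0368 and 0.459 CPM untreated and 0.516 and 1.49 CPM treated, so untreated replicate 3 lay near treated replicate 1. In the 4-library fit 19 members were tested, of which 2 rose and none fell (1.48% and 0.765% of all genes). List medians here and below are log2 changes of the 9-library fit.

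Tex19.1, a regulator of retrotransposons in germ cells, and Taf7l, a testis-enriched transcription factor subunit, both rose. Tex19.1 read 0.0648 and 0 CPM untreated, and 3.81 and 3.87 CPM treated (2 counts against 57, 118-fold with a 95% counting interval of 32.8 to 978, edgeR adjusted p = 0.0488 with 4 libraries and 0.279 with 9). Taf7l, on the X chromosome, read 0.357 and 0.159 CPM, then 6.75 and 6.08 CPM (24.9-fold, 0.0434 and 0.249). In dXist cells Taf7l stood at 0.71, 0.847 and 0.238 CPM untreated and 8.75 and 33.2 CPM treated.

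Dazl, an RNA-binding protein of germ cells, read 0.13 and 0 CPM untreated and 2.08 and 2.21 CPM treated (adjusted p = 0.0728 with 4 libraries, edgeR). Hormad1, a protein of the meiotic chromosome axis, had no counts in untreated libraries and 9 in the treated ones, which gives at least 12.3-fold higher (floor of 3 counts over the untreated group). Tdrd5, of the piRNA pathway, was more readily measured, at 1.07 and 3.43 CPM against 11.6 and 12.8 CPM. Tex15, needed for meiosis, was the best expressed member higher without overlap, at 28.1 and 24.3 CPM against 94.2 and 63.2 CPM. Brdt, a testis bromodomain protein, went the other way, at 5.44 and 3.24 CPM against 1.39 and 1.77 CPM. Tdrd5, Tex15 and Brdt were singled out after their values were seen.

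**Figure D3:**
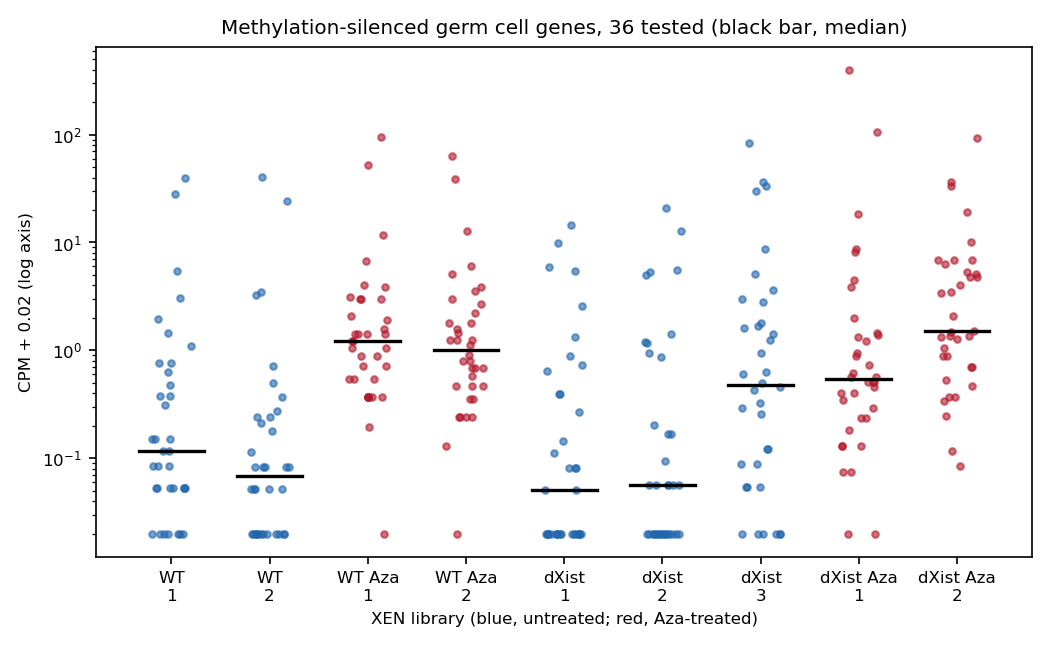
CPM plus 0.02 (log axis) of the 36 tested germ cell genes in each XEN library, with bars at the median; blue libraries are untreated and red ones treated. These 36 passed the filter in part through the treated and dXist libraries; of all 53 members, 7 and 4 reached 1 CPM in the untreated (13.2% and 7.55%, where 35.8% and 34% of all kept genes did) and 21 and 18 in the treated wild-type libraries (39.6% and 34%, where 38.2% and 37.4% did). In dXist it was 6, 8 and 14 untreated against 12 and 24 treated.

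The X-linked germline and placental clusters were mixed as a list. None of the 18 members tested in the 4-library fit was called, and the 23 tested in the 9-library fit had a median of -0.11, with 8 higher and 2 lower beyond 2-fold without overlap (18.7% and 6.9% of all tested genes). Rhox5, a reproductive homeobox gene, read 8.98 and 6.12 CPM untreated and 24.2 and 23.8 CPM treated (adjusted p = 0.0506, edgeR, 4 libraries). Rhox9 went from 0.0972 and 0.0317 CPM to 1.73 and 1.77 CPM. Rhox1 was at 0 in both untreated libraries and 0.866 and 0.331 CPM treated. Esx1, a placental homeobox gene, was lower, at 2.4 and 7.3 CPM against 1.21 and 0.884 CPM. Of the 2-cell list, 3 members (Zscan4d, Usp17le and Eif1a) were tested in the 9-library fit and 1 in the 4-library fit, with none called, and Eif1a read 70.9 and 72 CPM against 69.4 and 74.7 CPM.

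Of 45 imprinted genes tested in the 4-library fit 7 rose and none fell, where 1.48% and 0.765% of all genes did, and the median over 48 members was 0.25 in the 9-library fit. The 7 were Rian, Meg3, Kcnq1ot1, H19, Nespas and Airn, all noncoding RNAs, and Peg3, a zinc-finger protein gene. Rian and Meg3 are maternally expressed RNAs of the Dlk1-Dio3 cluster. Rian read 0.0648 and 0 CPM untreated and 8.31 and 9.72 CPM treated (2 counts against 136, 278-fold, counting interval 77 to 2297, edgeR adjusted p = 0.0411 with 4 libraries and 0.249 with 9). Meg3 read 0.13 and 0 CPM, then 7.1 and 8.06 CPM (0.0483 and 0.249). Neither depended on library type in EpiSCs by 2-fold, with log2 differences of 0.32 in both genotypes for Rian and -0.83 and -0.45 for Meg3.

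H19, the maternally expressed RNA beside Igf2, rose from 7.32 and 12.1 CPM to 162 and 161 CPM (edgeR adjusted p = 0.0343 with 4 libraries, 0.422 with 9). In dXist cells it read 0.0617, 0.0736 and 13.9 CPM untreated and 65.5 and 56.5 CPM treated. Airn, the paternal antisense RNA of Igf2r, rose from 7.45 and 9.17 CPM to 35.7 and 30.8 CPM (0.0411 and 0.249), and dXist cells had 8.45, 7.8 and 8.83 CPM against 32.1 and 25.5 CPM. Both arms were separated without overlap for these RNAs.

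Kcnq1ot1, the long noncoding RNA of the Kcnq1 domain, rose from 4.44 and 9.61 CPM to 172 and 93.5 CPM (18.9-fold, 0.0411 and 0.249). It was also higher in total-like EpiSC libraries, at 185 against 56.6 CPM in wild type and 368 against 81.4 CPM in dXist, and in dXist XEN cells it read 201 and 42.8 CPM treated against 5.06, 7.25 and 9.17 CPM. Nespas, an antisense RNA of the Gnas locus, rose from 0.81 and 1.36 CPM to 17.8 and 14.1 CPM (0.0362 and 0.263), with EpiSC type differences of 3.13 and 3.57 on the log2 scale, and dXist treated libraries read 1.2 and 1.12 CPM. Peg3 rose from 168 and 194 CPM to 461 and 459 CPM (0.0427 and 0.509). Counts of antisense RNAs depend on the strand setting, which was not given in the sources used here.

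Of 43 interferon and RNA sensing genes tested in the 4-library fit 5 rose and none fell (1.48% and 0.765% of all genes). Over 50 members in the 9-library fit the median was 1.84, and 33 were higher beyond 2-fold without overlap and none lower, where 18.7% and 6.9% of all tested genes were. Among the 33 members with at least 10 counts in both untreated libraries, 21 were higher in that way (8.36% of all such genes) with a median of 1.24 beside -0.16. The list median was 0.66 in dXist cells. The list summed there to 541, 541 and 2024 CPM untreated and 1010 and 1372 CPM treated, so untreated replicate 3 lay above both treated libraries. In wild-type cells the sums were 677 and 844 CPM untreated and 1107 and 1134 CPM treated.

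The 5 that rose were Oas1a, Ifit1, Gbp3, Ifitm3 and Xaf1. Ifit1, which binds viral RNA, went from 0.389 and 0.317 CPM to 3.81 and 4.09 CPM, and Oas1a, a sensor of double-stranded RNA, from 0.454 and 0.317 CPM to 3.81 and 5.19 CPM. Ifitm3, a membrane protein that restricts viral entry, went from 5.25 and 4.85 CPM to 34.1 and 40.8 CPM. The interferon-induced GTPase Gbp3 rose from 0.94 and 0.73 CPM to 6.23 and 6.63 CPM, and Xaf1, a pro-apoptotic factor, from 14.7 and 15.4 CPM to 43.1 and 43.5 CPM. Their edgeR adjusted p lay between 0.0343 and 0.0488 with 4 libraries and between 0.29 and 0.473 with 9.

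Others were separated without passing. The chemokine gene Cxcl10 read 0.0324 and 0 CPM untreated and 0.866 and 1.99 CPM treated (edgeR adjusted p = 0.055 with 4 libraries). Gbp2 read 0.583 and 0.349 CPM, then 2.94 and 4.31 CPM, and Trim30a 0.0972 and 0.0952 CPM, then 1.21 and 1.88 CPM. The RNA sensor Ddx58 (RIG-I) was at 5.64 and 14.1 CPM against 28.7 and 33.3 CPM, and the transcription factor Irf7 at 4.18 and 7.96 CPM against 19.2 and 21.5 CPM. Ddx58 and Irf7 were picked after their values were seen.

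In the MHC class I presentation list none of 16 tested members was called, 7 were higher beyond 2-fold without overlap (18.7% of all tested genes), and the median was 0.8. Tap1, a subunit of the peptide transporter, read 2.66 and 5.71 CPM untreated and 20.6 and 25.9 CPM treated (edgeR adjusted p = 0.0506, 4 libraries). Nlrc5, the transactivator of these genes, read 0.0324 and 0 CPM, then 1.56 and 0.884 CPM, while in dXist cells it read 0.247, 0.11 and 0.238 CPM untreated and 0.326 and 0.0961 CPM treated. Psmb9, an immunoproteasome subunit, read 0.194 and 0.127 CPM, then 0.866 and 0.773 CPM. Pdia3, a chaperone of the loading complex, was at 851 and 930 CPM against 526 and 497 CPM. Its log2 change turned to 0.62 with library type as a term over 13 libraries.

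Of 45 p53 target genes tested in the 4-library fit 6 rose and 1 fell, where 1.48% and 0.765% of all genes did, and the median over 46 was 0.51. Fas, a death receptor, rose from 3.86 and 2.35 CPM to 18.2 and 14.9 CPM (edgeR adjusted p = 0.0488 with 4 libraries, 0.282 with 9), and dXist cells had 4.5, 2.25 and 1.19 CPM against 28.8 and 15.4 CPM. Perp, a desmosomal p53 target, rose from 1.23 and 1.52 CPM to 12.1 and 12.9 CPM, and Pmaip1 (NOXA, a pro-apoptotic BH3 protein) from 29.5 and 28.3 CPM to 71.5 and 70.9 CPM. Ano3, a member of the anoctamin family, rose from 0.681 and 0.222 CPM to 12.5 and 9.06 CPM, and Ephx1 and Dcxr also rose. Ccnk, the cyclin partner of CDK12, fell from 101 and 144 CPM to 46.1 and 39.1 CPM, with EpiSC library types -2.29 and -1.07 apart on the log2 scale, and its change was 0.26 when library type was a term over 13 libraries.

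Cdkn1a, the p53-induced inhibitor of cyclin-dependent kinases, overlapped between groups, at 163 and 67.5 CPM untreated against 132 and 127 CPM treated (adjusted p = 0.962, edgeR, 9 libraries). Mdm2, the p53 ubiquitin ligase, read 206 and 120 CPM against 288 and 328 CPM, and Ccng1, cyclin G1, 353 and 219 CPM against 667 and 760 CPM. Trp53cor1 (lincRNA-p21) read 0.13 and 0.0317 CPM against 1.39 and 1.66 CPM, a separation that dXist cells did not show (0.339, 0.294 and 0.204 CPM against 0.163 and 0.448 CPM); the genotype difference for it was not called. Cdkn1a, Mdm2 and Ccng1 were picked after their values were seen.

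Cell cycle and mitosis genes lay slightly lower. Of 63 members 1 fell and none rose in the 4-library fit (0.765% and 1.48% of all genes), and the median was -0.42. Without overlap 40 were lower and 4 higher (28.5% and 30.1% of all tested genes). Only 4 of those lower lay beyond 2-fold (6.9% of all tested genes). The list median was 0.12 in dXist cells. Espl1 (separase) fell from 224 and 217 CPM to 98 and 103 CPM (edgeR adjusted p = 0.0484 with 4 libraries, 0.336 with 9). Cdc25b, a CDK-activating phosphatase, read 69.6 and 40.2 CPM against 18.4 and 19.9 CPM, Cdk2 176 and 116 CPM against 74.6 and 83.7 CPM, and the mitotic kinase Pbk 36.9 and 48.9 CPM against 20.6 and 26.1 CPM.

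None of 44 DNA repair genes was called (median -0.27). All 44 had at least 10 counts in both untreated libraries, where the median of all such genes was -0.16. The list median was -0.03 with library type as a term over 13 libraries and 0.38 in dXist cells. Lig1, the replicative DNA ligase, read 225 and 317 CPM untreated and 109 and 106 CPM treated. Ung, uracil glycosylase, read 20.5 and 35.5 CPM against 10.2 and 14.7 CPM, and Tdp1, which resolves DNA-protein adducts, 43.9 and 46.4 CPM against 22.3 and 26.1 CPM. Tdg, thymine DNA glycosylase, read 35.5 and 40.1 CPM against 25.1 and 26 CPM, but its log2 change was 0.30 with library type as a term. No integrated stress response gene was called either, of 30 tested in the 4-library fit. Over 31 in the 9-library fit the median was -0.86 (-1.33 to -0.17 over the alternatives), and 10 were lower beyond 2-fold without overlap (6.9% of all tested genes). In dXist cells the median was -1.90. There 18 members were lower and 1 higher at an unadjusted edgeR p under 0.05, against 12% and 14.7% of the 15030 genes of the 4-library fit. The list summed in dXist cells to 11957, 12040 and 3715 CPM untreated and 1153 and 3813 CPM treated, so untreated replicate 3 lay below treated replicate 2. In wild-type cells it summed to 2715 and 6025 CPM in the untreated replicates and 2573 and 2576 CPM in the treated ones. Slc7a5, an amino acid transporter, read 177 and 702 CPM against 127 and 133 CPM, and Mthfd2, of mitochondrial one-carbon metabolism, 86.4 and 230 CPM against 52 and 42.1 CPM. The serine synthesis genes Psat1 (231 and 486 CPM against 176 and 174 CPM) and Psph (33.3 and 86 CPM against 26.8 and 26.3 CPM) showed the same spread between untreated replicates.

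The XEN markers Gata4, Gata6, Sox17, Sox7, Foxa2, Pdgfra, Dab2, Lama1 and Col4a1 read at least 90.6 CPM in all 4 libraries, as their label says. Not every marker of the wider list was high, as Amn below shows. Sox17 read 556 and 678 CPM untreated and 378 and 381 CPM treated, Foxa2 127 and 131 CPM against 93 and 90.6 CPM, and Pdgfra 582 and 626 CPM against 434 and 411 CPM. The basement membrane genes were among the most abundant, with Col4a1 at 20638 and 26728 CPM against 20521 and 19723 CPM. Of 25 tested extraembryonic endoderm markers none was called, and the median was -0.51. Without overlap 17 were lower (28.5% of all tested genes), 4 of them beyond 2-fold (6.9% of all tested genes).

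Sox7 was the marker with the smallest adjusted p in that list, at 663 and 485 CPM untreated and 227 and 212 CPM treated (edgeR adjusted p = 0.0506 with 4 libraries, 0.263 with 9). Gata6 read 507 and 619 CPM against 259 and 239 CPM, and Gata4 1153 and 1326 CPM against 618 and 614 CPM. Grb10, an imprinted adaptor of growth factor receptors, read 81 and 64.4 CPM against 33.9 and 32.1 CPM, whereas dXist cells went from 0.123, 0.11 and 0.17 CPM to 1.74 and 1.25 CPM. In the dXist comparison Grb10 was called higher (log2 change 3.41, edgeR adjusted p = 0.0475). The difference between genotypes was -4.55 on the log2 scale (SE 0.55, adjusted p = 0.177, edgeR) and was not called. Amn, of the endocytic cubilin complex, read 0.94 and 1.05 CPM against 6.58 and 4.53 CPM.

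Of 25 parietal endoderm and basement membrane genes tested in the 4-library fit 1 rose and 1 fell (1.48% and 0.765% of all genes). The median over 26 was -0.39. Krt19, a keratin of simple epithelia, rose from 108 and 124 CPM to 349 and 308 CPM (edgeR adjusted p = 0.0411 with 4 libraries, 0.249 with 9), and dXist cells had 70.9, 60.8 and 76.2 CPM against 161 and 148 CPM. Snai1, a repressor of epithelial genes, fell from 176 and 235 CPM to 60.6 and 54.6 CPM (0.0411 and 0.282). Thbd, thrombomodulin, read 1.49 and 0.793 CPM against 5.2 and 8.4 CPM.

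In the visceral endoderm list none of 23 genes tested in the 4-library fit was called. Of 24 in the 9-library fit 9 were higher beyond 2-fold without overlap (18.7% of all tested genes) and none lower, and the median was 0.36. Cdh1 (E-cadherin) read 3.57 and 20.2 CPM untreated and 68.6 and 55.7 CPM treated, so the treated libraries were above both untreated ones, which themselves lay far apart. Cldn6, a tight junction protein, read 14.5 and 36.4 CPM against 96.3 and 111 CPM. Trf (transferrin) was at 0.0648 and 0 CPM against 1.56 and 1.88 CPM, and Afp (alpha-fetoprotein) at 0.0648 and 0 CPM against 0.693 and 1.1 CPM. Among 24 cholesterol synthesis genes the median was -0.63, none rose and 2 fell (1.48% and 0.765% of all genes in the 4-library fit). Those were Srebf2, the transcription factor of the pathway, from 456 and 438 CPM to 184 and 174 CPM (0.0435 with 4 libraries, edgeR adjusted p), and Dhcr7, the last enzyme of synthesis, from 37.1 and 30.8 CPM to 9.53 and 9.39 CPM (0.0416). Cyp51 read 80.1 and 68.7 CPM against 32.9 and 35.9 CPM and Msmo1 52.2 and 41.4 CPM against 21 and 25.4 CPM. None of 38 lysosome genes was called (median -0.16). Cd63 read 449 and 489 CPM against 246 and 222 CPM, Hexa 0.616 and 0.254 CPM against 2.94 and 2.76 CPM, and Gusb 0.519 and 0.73 CPM against 5.02 and 3.09 CPM. Tpp1 read 275 and 290 CPM against 168 and 164 CPM, but its log2 change was 0.16 with library type as a term.

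Of 16 epiblast markers tested in the 4-library fit 1 rose and none fell (1.48% and 0.765% of all genes). Of 19 in the 9-library fit 7 were higher and 2 lower beyond 2-fold without overlap (18.7% and 6.9% of all tested genes). Only 12 of the 19 had at least 10 counts in both untreated libraries. Of these, 1 was higher and 2 lower in that way (8.36% and 7.91% of all such genes). Their median was -0.19, beside 0.63 over the 19 and -0.16 for all such genes. The list summed to 2001 and 2924 CPM untreated and 1711 and 1650 CPM treated. The defining Sox2, Fgf5, Otx2 and Pou3f1 lay between 0 and 0.331 CPM in all 4 libraries, and Nanog read 0.357 and 0.635 CPM untreated and 0.346 and 0.11 CPM treated. Pou5f1, a defining factor as well, read 0.681 and 0.762 CPM against 3.46 and 5.86 CPM, without overlap. Dppa4, a chromatin protein of pluripotent and germ cells, rose from 0.0972 and 0.254 CPM to 4.68 and 3.31 CPM (edgeR adjusted p = 0.0495 with 4 libraries, 0.29 with 9), and its neighbour Dppa2 read 0.0324 and 0.0317 CPM against 1.73 and 0.773 CPM. Lin28b read 0.0324 and 0.412 CPM against 3.29 and 3.31 CPM, and Klf4 571 and 345 CPM against 198 and 175 CPM.

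None of 10 trophoblast markers tested in the 4-library fit was called and the median over 13 was 0.64, with sums of 722 and 1151 CPM untreated and 1855 and 1717 CPM treated. Peg10, an imprinted retrotransposon-derived gene, took 107 and 233 CPM of these sums untreated and 905 and 796 CPM treated (edgeR adjusted p = 0.0506, 4 libraries). Of the defining markers, Cdx2 read 0.162 and 0.0952 CPM untreated and 0.866 and 0.663 CPM treated, and Eomes 0.843 and 1.59 CPM against 1.56 and 2.21 CPM. Elf5 read 0.324 and 0.19 CPM against 0.346 and 0.221 CPM, and Hand1 was at 0 in 3 libraries and 0.173 CPM in treated replicate 1. Gata2 read 0.194 and 0.539 CPM against 4.16 and 3.76 CPM and Ascl2 0.0648 and 0 CPM against 0.346 and 0.663 CPM. Of 10 fibroblast markers tested in the 4-library fit 2 rose and none fell (1.48% and 0.765% of all genes). The median over 13 in the 9-library fit was 1.83, but 0.53 over the 8 with at least 10 counts in both untreated libraries and -0.31 without treated replicate 1, with sums of 347 and 366 CPM against 622 and 508 CPM. Col6a2, a collagen VI chain, rose from 2.07 and 1.62 CPM to 18.5 and 15.7 CPM (0.0343 and 0.423). The smooth muscle genes Acta2 (17.4 and 7.96 CPM against 66.2 and 59.1 CPM) and Tagln (0.259 and 14.7 CPM against 70.1 and 62.3 CPM) were separated without being called. Of the defining markers, Thy1, Twist1 and Col3a1 were at 0 in both treated libraries and at most 0.292 CPM untreated, Prrx1 read 0.0972 and 0.0317 CPM against 0.346 and 0 CPM, and Col1a1 0.616 and 0.317 CPM against 0.346 and 0.221 CPM. Col1a2 read 0.194 and 0.127 CPM against 1.73 and 1.33 CPM, and Pdgfrb was well above 0 in every library, at 16.3 and 16 CPM against 11.9 and 12 CPM. The part of such cells in the results was not tested. In bulk RNA, fewer cells of a type and less RNA per cell cannot be told apart.

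**Figure D4:**
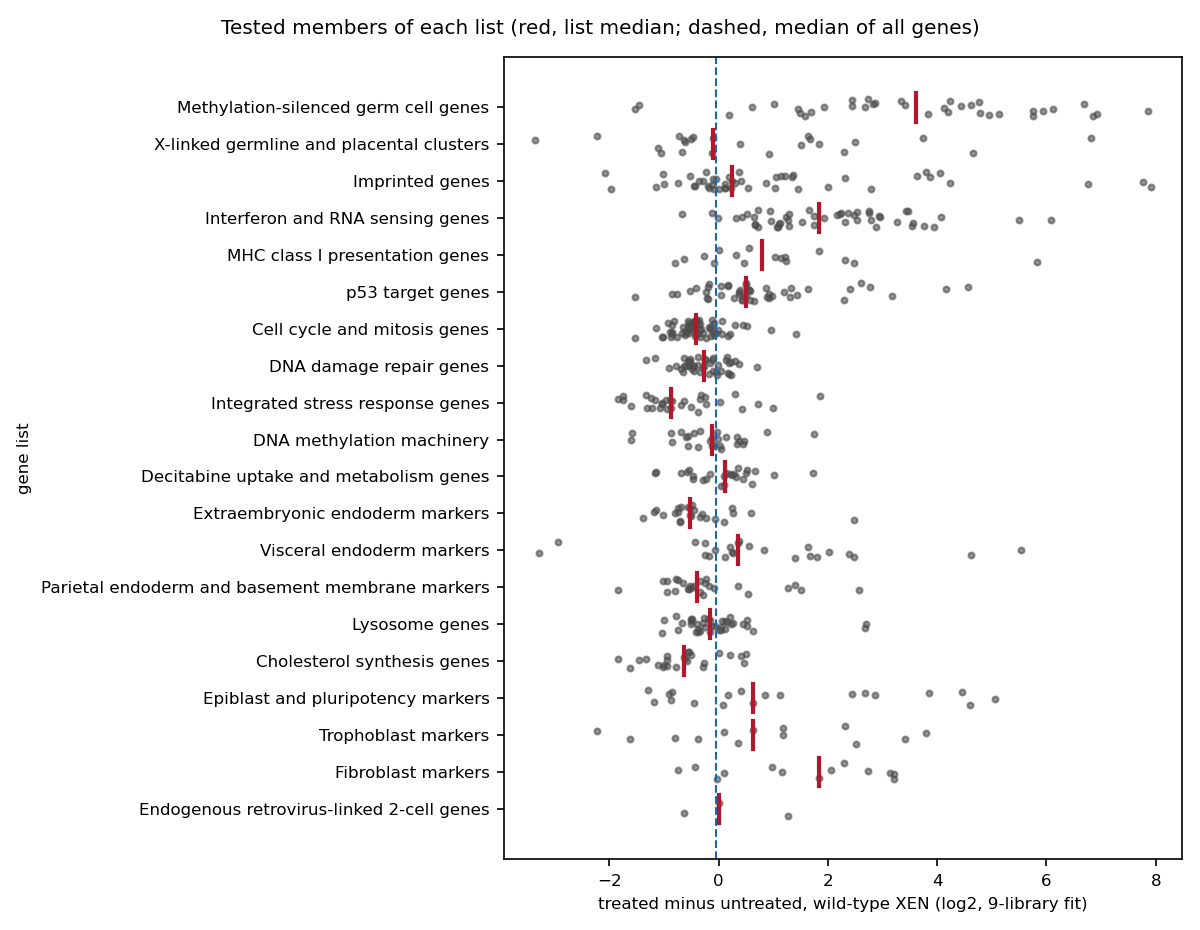
Each point is a tested member of 1 of the 20 lists, placed by its log2 change between treated and untreated wild-type XEN libraries in the 9-library fit; red bars are list medians and the dashed line the median of all genes (-0.05). In this fit germ cell (3.62), interferon (1.84) and fibroblast (1.83) lists have the highest medians and the integrated stress response list the lowest (-0.86). Over members with at least 10 counts in both untreated libraries these medians were 1.02, 1.24, 0.53 and -0.88. Over the alternatives the fibroblast median ran from -0.31 to 2.09 and the stress response median from -1.33 to -0.17.

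The 10 protein-coding genes with the largest rise, restricted to those whose fitted change was at least 1 on the log2 scale when library type was a term in a 13-library fit, began with Rpl39l. None of the 10 passed in that fit (edgeR adjusted p of 0.528 or more), and its estimates for Rpl39l, with no untreated counts, and Pnoc (SE 30.4) had no usable precision. Rpl39l, a testis-enriched ribosomal protein paralogue, had no counts in the untreated libraries and read 2.25 and 2.76 CPM treated, at least 52.1-fold higher (edgeR adjusted p = 0.0481 with 4 libraries, 0.282 with 9); its reads may be shared with Rpl39. After Tex19.1 came Pnoc, a neuropeptide precursor, at 0.0324 and 0 CPM against 2.25 and 2.1 CPM. Nefl, the neurofilament light chain, rose from 0.162 and 0.254 CPM to 10.7 and 8.73 CPM (46.8-fold, 0.0343 and 0.29), and dXist cells had 2.25, 0.81 and 0 CPM against 17.4 and 4.13 CPM.

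Eppk1 (epiplakin) rose from 0.162 and 0.412 CPM to 12.3 and 6.19 CPM, and Slco5a1, an organic anion transporter family member, from 0.0972 and 0.254 CPM to 5.37 and 5.52 CPM. Ltbp1, which stores latent TGF-beta in the matrix, rose from 0.227 and 0.476 CPM to 9.7 and 8.51 CPM. Trp53i11 rose from 0.13 and 0.159 CPM to 3.81 and 3.87 CPM and 2810459M11Rik from 0.0324 and 0.0635 CPM to 1.56 and 2.43 CPM. With Taf7l these complete the 10. Of the 10, 8 were higher without overlap in dXist cells, and Pnoc and Trp53i11 overlapped; in dXist cells Slco5a1 was at 0.123, 0.0368 and 0.0679 CPM untreated and 3.86 and 1.47 CPM treated.

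**Figure D5:**
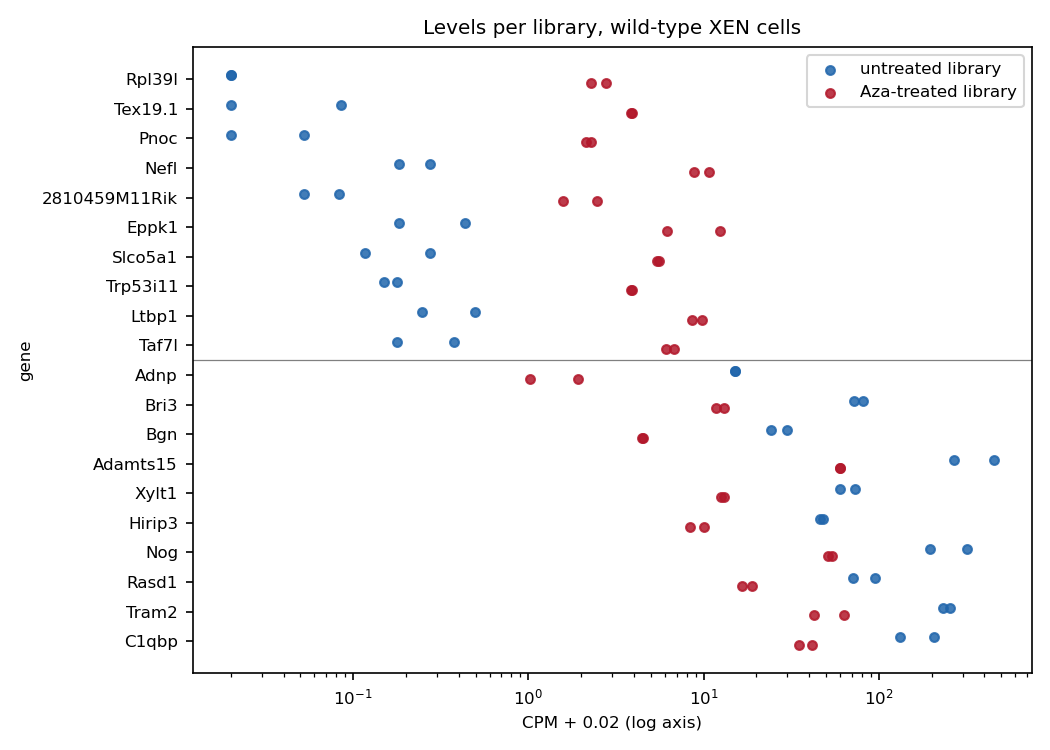
CPM plus 0.02 (log axis) in each untreated (blue) and treated (red) wild-type XEN library for the 10 genes with the largest rise (above the line) and the 10 with the largest fall. Treated and untreated points do not overlap for any of the 20 because the genes were chosen that way. Those that rose start below 0.5 CPM and those that fell start above 15 CPM.

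Among the 10 with the largest fall, Adnp, a neuroprotective homeobox protein of a chromatin-repressor complex, went from 15.1 and 15.1 CPM to 1.91 and 0.994 CPM (log2 change -3.39, SE 0.42, edgeR adjusted p = 0.0411 with 4 libraries). Adamts15, a proteoglycan-cleaving protease, fell from 269 and 453 CPM to 60.1 and 60 CPM, Bgn (biglycan) from 29.7 and 24.2 CPM to 4.5 and 4.42 CPM, and Xylt1, which starts glycosaminoglycan chains, from 73.4 and 59.6 CPM to 12.5 and 13 CPM. Nog (noggin), the secreted BMP antagonist, fell from 194 and 317 CPM to 53.9 and 51 CPM, and in dXist cells it read 1122, 916 and 159 CPM against 51.1 and 154 CPM.

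Bri3 fell from 72 and 80.8 CPM to 13 and 11.7 CPM, and Hirip3, a histone chaperone, from 45.8 and 47.6 CPM to 10 and 8.29 CPM. Rasd1, a Ras-related GTPase, fell from 71 and 94.8 CPM to 18.9 and 16.6 CPM, Tram2, of the translocon, from 253 and 233 CPM to 63.2 and 42.6 CPM, and C1qbp, a mitochondrial matrix protein, from 131 and 206 CPM to 41.7 and 34.8 CPM. Of these 10 genes, Bri3, Adamts15 and Nog were lower without overlap in dXist cells and the other 7 overlapped, among them Rasd1 (3.08, 3.09 and 50.6 CPM against 37.8 and 8.97 CPM). With library type as a term over 13 libraries none of the 10 passed (edgeR adjusted p of 1), and 5 changes were over 1.5 times smaller on the log2 scale. Those were -1.14 for Bri3, -1.15 for Hirip3, -1.04 for C1qbp, -1.16 for Tram2 and -1.49 for Bgn, against -2.60, -2.33, -2.11, -2.18 and -2.57 in the 4-library fit. In the EpiSC libraries, which set the type term of that fit, the total-like ones were lower. The log2 differences were -0.96 and -1.75 for Bri3 and -1.80 and -0.41 for Hirip3.

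A further 7 large falls had a fitted fall under 1 on the log2 scale, or a rise, when library type was a term over 13 libraries, and they were picked after their values were seen. All 7 were lower by at least 2-fold in the total-like EpiSC libraries of both genotypes. Each XEN group held only 1 library type, so the type term came from these same EpiSC libraries and this is not separate evidence. They were Anp32b, Hnrnpa3, Mbd6, Fam98b, Ncl, Eif1 and Polr2a. Ncl (nucleolin) fell from 1043 and 1739 CPM to 290 and 225 CPM in XEN cells, with EpiSC type differences of -3.28 and -1.71 on the log2 scale. Polr2a, the largest subunit of RNA polymerase II, fell from 405 and 456 CPM to 111 and 60.2 CPM, with type differences of -3.7 and -1.55. With library type as a term over 13 libraries the log2 changes turned to 0.16 for Ncl, 0.39 for Polr2a and 0.28 for both Hnrnpa3 and Fam98b. In dXist cells, where both groups are poly(A)-like, Polr2a read 655, 841 and 259 CPM untreated and 665 and 372 CPM treated, which overlapped. Of the 7, 5 overlapped there. Eif1 was lower without overlap, at 1674, 1596 and 507 CPM untreated and 103 and 370 CPM treated (log2 change -2.41), and so was Mbd6, at 86.4, 91.8 and 113 CPM against 11.7 and 55.5 CPM (-1.53).

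Promoter CpG content was set beside the calls for genes with a single RefSeq start. Among 362 genes with 0 to 2 CpGs in the 250 bases upstream 2.21% rose, and 1.95% did of 1639 genes with 3 to 9. The share was 0.872% of 3326 genes with 10 to 19 and 0.769% of 2990 with 20 or more. Untreated levels moved with these classes too, from a median of 1.7 CPM in the lowest class through 8.54 and 32 CPM to 40.4 CPM in the highest, and their part in the shares was not tested.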

How the data were processed

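Raw counts per gene for 13 RNA libraries were deposited by the authors in 1 table. Per the submitters' processing notes, FastQC, STAR 2.7.9a and featureCounts 2.0.1 were used with GRCm38 (mm10); the strand setting, the handling of multimapped reads and the annotation were not given in the sources used here. Identifiers were matched to GENCODE vM21 (38240 of 38377), and 2419 histone, small noncoding RNA and rRNA genes were left out, keeping 35958. Counts were scaled by TMM and filtered by filterByExpr, and tested with edgeR 4.0.16 (quasi-likelihood, robust, Benjamini-Hochberg, adjusted p under 0.05) on the 9 XEN libraries, with 5 residual degrees of freedom; DESeq2 1.42.0 was an alternative. As that fit called 0 genes, genes were named from the 4-library fit, a decision made after seeing the result.

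Named genes were the 10 largest rises and falls among called protein-coding genes (no overlap, at least 1 CPM in the higher group, at least 1 on the log2 scale in the 13-library fit with library type), up to 4 members of each of 20 lists by adjusted p, and 9 set by name. Members and lists were chosen with earlier results of these data known. A library was total-like above 5% of counts in mitochondrial rRNA and Rn7sk. Promoters are RefSeq, GRCm38.p6. Fold intervals are exact and cover counting error only. Fits were tested on simulated data. Some genes are not reported here.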

Additional observations from a re-analysis of the deposited data

How the results depend on the processing

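For wild-type XEN cells the 9-library count of 0 genes stayed 0 with RLE or upper-quartile scaling, with protein-coding genes alone, with a replicate block and without any 1 library (range 0 to 0). It became 460 with DESeq2, 576 with no filter on low counts, 107 with all genes kept (91 of these in the classes left out, 53 of them histone genes), 1 with library type as a term over 13 libraries, and 337 in the 4-library fit; upper-quartile scaling moved the median of all genes by over 0.1. The 4-library count became 2024 with DESeq2, 2230 with no filter, 208 with protein-coding genes, 2054 with the replicate block and 192 among genes within 2-fold between EpiSC types, an alternative added after seeing the data; without 1 library it ranged from 0 (either treated library) to 9269. The dXist count of 13 became 2882 with DESeq2, 28 with RLE, 2762 with no filter, 1443 with library type and 144 with the replicate block, and 0 to 4739 without 1 library (4739 without treated replicate 2, 402 without untreated replicate 3, otherwise 0). The genotype difference, 0 genes, became 78 with DESeq2 and 213 with no filter, was 0 with the replicate block, and ranged from 0 to 1460 (without dXist treated replicate 2). The replicate numbers did not pair the samples (correlations 0.01, -0.03 and 0.07). The causes were not tested.

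With library type as a term the log2 change turned sign for Hnrnpa3 (0.28), Fam98b (0.28), Ncl (0.16), Polr2a (0.39), Pdia3 (0.62), Ccnk (0.26), Tdg (0.30), Tpp1 (0.16), Cdx2 (-1.26), Usp17le (1.78), Xist (1.54), Dnmt3a (0.34), Cda (-0.27) and Samhd1 (0.71). Upper-quartile scaling turned Xist (0.11), Dnmt3a (0.025) and Uhrf1 (0.11), and no filter turned Eif1a (-0.078) and Dnmt1 (-0.045). Without 1 library the log2 change ranged across 0 for Usp17le (-5.94 to 0.136), Xist (-0.368 to 0.0499), Dnmt1 (-0.185 to 0.128), Uhrf1 (-0.497 to 0.273), Dck (-0.101 to 0.207) and Cda (-0.369 to 2.37), and for Eif1a it ran from -0.13 to -6.47e-05. Of 1453 pairs of a named gene and an alternative, 1277 kept direction and side of the threshold, 144 gained a call and 32 turned. List medians crossed 0 under some alternative for the X-linked germline, DNA methylation, decitabine metabolism, lysosome, fibroblast and 2-cell lists (fibroblast -0.31 to 2.09, lowest without treated replicate 1); the germ cell median ranged from 2.74 to 3.79 and the interferon median from 1.43 to 2.03. Depth limits low genes most, since 1 treated library had 5848454 counts.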
